A study of Mus musculus with 20 samples.

Results

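Estradiol (E2, the main circulating estrogen) was compared with placebo in the livers of wild-type mice 4 h after gavage. The members are all genes whose probe passed the scanner's test against background on 4 or 5 arrays of 1 group or the other, and 21810 of the 21998 genes fitted in the series met that rule. Both groups were ERa+/+ mice, which carry estrogen receptor alpha, with 5 animals each and 1 array per animal. All were ovariectomized at 4 weeks of age, so the controls lacked ovaries as well, and were caged in groups of 5, with no label giving which animals shared a cage. At 9 weeks the placebo group received castor oil with 5% ethanol by mouth, and the E2 group received E2 at 1 mg/kg. Before sacrifice every animal was anesthetized with intraperitoneal ketamine, at 100 mg/kg, together with xylazine at 10 mg/kg. The wild-type breeders came from the parents that also gave the receptor-null line (ERKO), whose E2 and placebo livers, 5 each, were ovariectomized and gavaged in the same way and serve here as a reference.

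Estrogen receptor alpha is a nuclear receptor of hepatocytes. Once estradiol is bound, it attaches to DNA, at inverted repeats called estrogen response elements or through other factors, and recruits coregulators that raise or lower transcription of nearby genes. In liver it is known for effects on lipid, bile acid and clotting factor metabolism, and a sample taken a few hours after a dose shows mostly transcripts whose synthesis or decay changed early.

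Levels are log2 signals of 1-colour microarrays relative to the 75th percentile of the array, so that 0 is that percentile and 1 unit is a 2-fold step. In each sentence on a gene the 5 values of a group are those of animals 1 to 5 in that order. A gene is called where its adjusted p in limma was under 0.05. The livers carried hepatocyte transcripts: 17 of the 17 hepatocyte markers measured were well above background on all 10 wild-type arrays, their median change was 0.03, and 0 were called. Between 53.96% and 70.05% of spots were well above background on the wild-type arrays, most in E2 animal 1, and all arrays came from 4 slides. Slides 1, 2 and 4 held both groups, and within them 70, 70 and 69 of the 70 calls kept their sign. A fit that took the slide as a block called 50 genes, which held 48 of the 70, so the other calls ended under it.

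E2 raised 66 genes (0.303% of the 21810) and lowered 4 (0.0183%), 70 called genes in all (0.321%). Without adjustment 1041 genes were higher (4.77%) and 766 lower (3.51%) at p under 0.05. Of all members 50.3% lay above 0. Their median change was 0.00, and the middle of the distribution ran from -0.10 at the 25th percentile to 0.13 at the 75th. Scaling the arrays on their median in place of the 75th percentile gave 32 called genes (30 higher, 2 lower), 31 of them among the 70. A fit of the 10 wild-type arrays alone gave 46 (44 higher, 2 lower), 42 of them among the 70. Of the rises, 46 were at least 2-fold and 20 were smaller, down to a log2 of 0.52. All 66 rises were well above background on every E2 array, and 55 were so on 4 or 5 placebo arrays, 5 on 1 to 3 and 6 on 0. In 67 of the 70 called genes all animals of one group lay beyond all animals of the other, a pattern that 1.52% of all members showed. The 10 largest fitted rises of genes with a symbol were Slc34a2 (at least 24.2-fold, fitted log2 5.90), Corin (at least 8.43-fold, 3.71), Mmd2 (3.38), Gdf15 (3.36), Hrob (3.22), Krt4 (at least 2.94-fold, 3.10), Rab44 (2.95), Trex2 (2.83), Krt79 (2.47) and Asb2 (2.39). A lower bound is given where no placebo array was well above background: it sets the E2 mean against the dimmest signal well above background on each placebo array or the probe's own signal, whichever was higher. The order of these genes among the 10 is therefore not settled, and Trex2 and Rab44 were well above background on only 1 and 3 of 5 placebo arrays. With normexp background correction, a way of removing background that shrinks the changes of dim probes, the log2 rises were 2.60 for Slc34a2, 1.33 for Corin, 1.23 for Rab44, 0.85 for Trex2 and 0.58 for Krt4. The bounds were computed without normexp, and those of Slc34a2, Corin and Krt4 are each larger than the rise with it. The same is true of the bounds given below for H2ap, Sytl5 and a myosin XVB transcript. They are thus lower bounds under the main processing only. The other 48 rises with a symbol, ranked 11 on, are described here by function, with the value of every animal for those ranked 11 to 35.

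**Figure D1:**
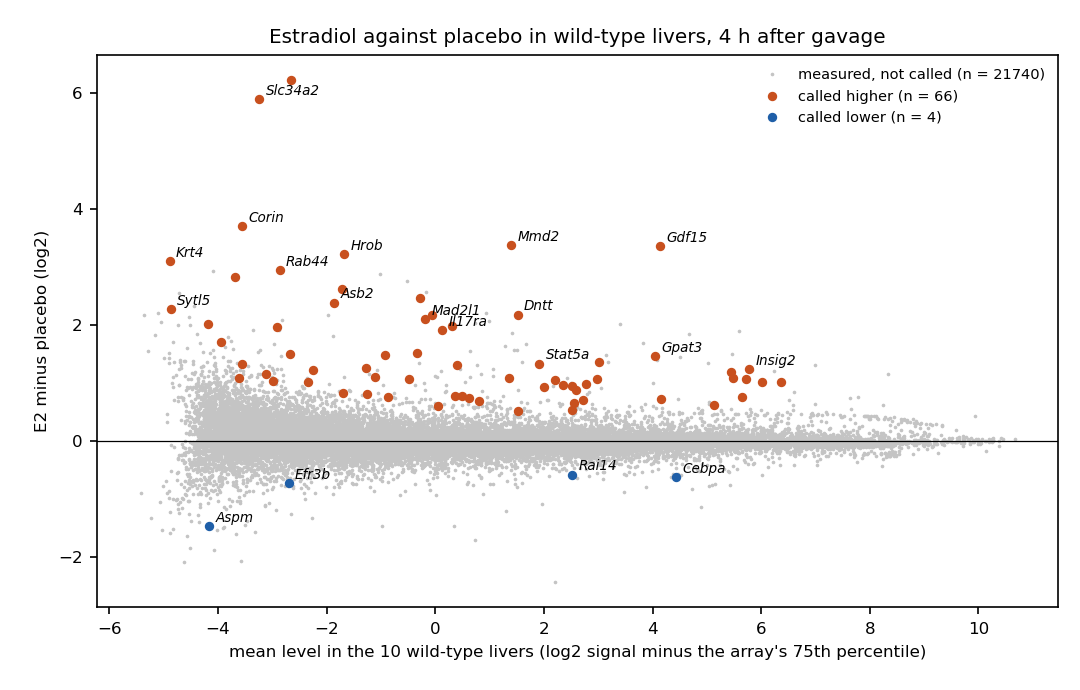
Log2 change with E2 (vertical) against the mean level of each gene in the 10 wild-type livers (horizontal), for 21810 genes; orange points are the 66 genes called higher, blue points the 4 called lower and grey points the rest. The called rises spread over a wide range of levels, and uncalled genes scatter most widely at low levels. No called rise is among the hepatocyte markers, whose mean level per animal was 9.01 to 9.28.

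Among genes of signalling and transcription, Stat5a is the transcription factor that growth hormone and prolactin receptors activate through JAK2. Its level was 2.69, 2.20, 2.68, 2.73 and 2.61 in the E2 livers and 1.45, 0.95, 1.17, 1.11 and 1.55 under placebo. Stat5a thus rose 2.52-fold (log2 1.33 ± 0.15, SE, adjusted p = 4.7e-05). Its probe lies on chromosome 11 at 100746373 to 100746432 on mm9, and all positions given beside expression values are those of probes on this build. Each E2 liver lay above each placebo liver, with E2 animal 2 below the other 4. Stat5b, its close paralog in the same gene cluster, read 3.94, 3.83, 3.92, 3.72 and 3.64 with E2 and 3.53, 3.53, 3.18, 3.29 and 3.31 under placebo. Its difference of 0.44 ± 0.09 lay just outside the threshold (adjusted p = 0.0504), and its groups did not overlap either. No other gene of growth hormone signalling was called with limma, and 12 of the 15 listed lay below 0 (median -0.11, against 0.00 over all genes), among them Socs2, a feedback inhibitor that this pathway induces, at -1.22 ± 0.58 (adjusted p = 0.603). The list's median in each animal, as a difference from the placebo mean of each gene, was -0.07, -0.39, -0.09, 0.00 and -0.06 with E2 and 0.01, 0.00, 0.04, 0.06 and -0.13 under placebo, so the groups overlapped.

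A receptor and an adaptor of the same cytokine rose together. Il17ra, the ligand-binding subunit shared by receptors for interleukin 17 cytokines, read 1.64, 1.27, 0.79, 0.97 and 0.71 in E2 livers and -0.86, -0.35, -0.96, -0.86 and -1.11 in placebo livers. Il17ra thus rose 3.75-fold (log2 1.91 ± 0.24, adjusted p = 0.000157; chromosome 6 at 120432880 to 120432939). Traf3ip2, which encodes Act1, the adaptor that this receptor recruits, read -1.53, -1.80, -2.11, -2.01 and -1.72 with E2 and -2.93, -2.78, -3.07, -2.72 and -2.72 under placebo. Traf3ip2 thus rose 2.01-fold (log2 1.01 ± 0.18, adjusted p = 0.00948; chromosome 10 at 39361186 to 39365558). Both genes had groups that did not overlap. The list of inflammatory cytokines and chemokines, which holds neither gene, had 0 of 23 members called, 13 above 0 and a median of 0.01. Its member with the lowest p was Nfkbiz, an inducible regulator of NF-kappa B, at -0.32 ± 0.13 (adjusted p = 0.506). With normexp the rise of Traf3ip2 was 0.50 (adjusted p = 0.0014) and that of Il17ra 1.63.

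Creb3l4, a membrane-bound transcription factor of the endoplasmic reticulum, read -2.06, -1.92, -1.87, -1.68 and -2.08 with E2 and -3.30, -3.94, -3.26, -3.58 and -3.06 under placebo. Creb3l4 thus rose 2.84-fold (log2 1.51 ± 0.16, adjusted p = 2.74e-05; chromosome 3 at 90041531 to 90041590), or by 0.72 with normexp (adjusted p = 9.31e-05). The 5 E2 values spanned a narrower range than the placebo values and lay wholly above them. Ptpn22, a phosphatase that restrains antigen receptor signalling in lymphocytes, read -3.37, -2.63, -2.99, -2.78 and -3.54 with E2 and -4.31, -4.08, -4.64, -3.97 and -3.78 under placebo. Ptpn22 rose (log2 1.09 ± 0.23, adjusted p = 0.0446; chromosome 3 at 103716092 to 103716151), with 4 of 5 placebo arrays well above background. The call of Ptpn22 ended without any 1 of 14 arrays and with normexp (0.35, adjusted p = 0.292). Of 12 measured T and NK cell markers 10 lay above 0 (median 0.20) and 0 were called. Their mean level ran from -1.27 to -0.80 over the E2 livers and from -1.45 to -1.17 over the placebo livers. The part of lymphocytes in the Ptpn22 value was not tested. In a piece of liver, a changed number of cells of a type and a changed amount of RNA per cell cannot be told apart. Map3k13, a kinase upstream of JNK, rose 1.68-fold (log2 0.75 ± 0.12, adjusted p = 0.00241). Its other probe, well above background on 2 of 5 placebo arrays, rose by 1.97. The Map3k13 call ended with median scaling and with the wild-type arrays alone. Mn1, a transcriptional coactivator, rose 1.68-fold (log2 0.75 ± 0.11, adjusted p = 0.00224).

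Several called genes act in lipid metabolism, a grouping also made after the calls were known. Those described were higher, as were 66 of all 70 called genes. Gpat3, which catalyses the first acylation of glycerol 3-phosphate in triglyceride synthesis, read 5.00, 4.71, 4.63, 4.94 and 4.63 in the E2 livers and 3.93, 3.06, 3.33, 2.97 and 3.29 under placebo. Gpat3 thus rose 2.76-fold (log2 1.47 ± 0.16, adjusted p = 2.71e-05; chromosome 5 at 101328054 to 101328113). Gpcpd1, which breaks down glycerophosphocholine, read 3.68, 3.93, 3.97, 3.52 and 3.42 with E2 and 3.14, 2.34, 2.38, 1.94 and 1.89 under placebo. Gpcpd1 thus rose 2.58-fold (log2 1.37 ± 0.29, adjusted p = 0.0476; chromosome 2 at 132379701 to 132379760). For Gpat3 the groups were far apart. The highest placebo value of Gpcpd1, in animal 1, came close to the lowest E2 values, and the call ended without any 1 of 16 of the 20 arrays. Insig2, the endoplasmic reticulum protein that holds back SREBP processing and promotes decay of HMG-CoA reductase, read 6.22, 6.36, 6.47, 6.50 and 6.46 with E2 and 6.15, 5.45, 4.98, 4.78 and 4.43 under placebo. Insig2 thus rose 2.37-fold (log2 1.25 ± 0.26, adjusted p = 0.0488; chromosome 1 at 123201085 to 123201144). The E2 livers were tightly grouped, while placebo livers ranged widely, with animal 1 close to the E2 values. The call of Insig2 ended without any 1 of 17 arrays, although its other probe gave a similar rise of 1.23 (adjusted p over all probes = 0.0458).

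Genes of fatty acid handling had smaller rises. Ehhadh, the bifunctional enzyme of peroxisomal beta-oxidation and a classical PPAR-alpha target, read 6.79, 6.43, 6.77, 7.18 and 7.24 with E2 and 6.26, 5.23, 6.33, 5.46 and 6.03 under placebo. Ehhadh thus rose 2.03-fold (log2 1.02 ± 0.21, adjusted p = 0.0389; chromosome 16 at 21761914 to 21761973). Slc27a1, a fatty acid transporter, read 2.08, 1.78, 1.66, 1.74 and 1.69 with E2 and 1.42, 1.30, 1.22, 0.96 and 1.46 under placebo. Slc27a1 thus rose 1.43-fold (log2 0.52 ± 0.10, adjusted p = 0.0325; chromosome 8 at 74110256 to 74110315). Neither gene's groups overlapped, and their calls ended without any 1 of 12 and 6 arrays. Acot11, an acyl-CoA thioesterase, lay outside the threshold at 1.25 ± 0.27 (adjusted p = 0.0555). Elovl6, which elongates palmitate, lay on the other side of 0, reading 4.56, 4.53, 4.83, 5.06 and 4.60 with E2 and 5.45, 5.77, 5.56, 5.27 and 5.32 under placebo, without overlap. Its difference of -0.76 ± 0.17 was not called (adjusted p = 0.0806).

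As lists, the lipid pathways moved little. Of 33 genes of fatty acid oxidation and PPAR-alpha targets, 1 was called (Ehhadh), 24 lay above 0 and the median was 0.07. The median relative to all genes within slides 1, 2 and 4 was 0.15, 0.32 and -0.18, so its sign was not the same in each. Of 26 cholesterol synthesis genes 1 was called (Insig2), 18 lay above 0 and the median was 0.09 (0.25, 0.43 and -0.07 within slides). Hmgcs1, which makes HMG-CoA, was 0.63 ± 0.28 (adjusted p = 0.566). Of 28 genes of fatty acid and triglyceride synthesis, a list that does not hold Gpat3, 0 were called, 13 lay above 0 and 15 below (median -0.04). Of these, 8 had an unadjusted p under 0.05 (28.6%, against 8.29% of all genes), 4 higher and 4 lower. They included Mlxipl, which encodes the carbohydrate-responsive factor ChREBP (-0.41 ± 0.13, adjusted p = 0.336), and Scd2, a stearoyl-CoA desaturase (0.57 ± 0.18, adjusted p = 0.35). Among 28 genes of lipoproteins and lipid transport 0 were called and the median was 0.00. Angptl8, a feeding-induced inhibitor of lipoprotein lipase, was at -0.80 ± 0.25 (adjusted p = 0.345) and the fatty acid transporter Cd36 at 0.88 ± 0.40 (adjusted p = 0.573). Of 28 genes of bile acid synthesis and transport 0 were called, 13 lay above 0, and the lowest p belonged to the efflux pump Abcc4 (0.55 ± 0.19, adjusted p = 0.419).

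Several genes of transport and small-molecule metabolism were called as well. Aqp8, a water channel of hepatocytes, read 6.27, 6.03, 6.18, 5.69 and 6.0 in E2 livers and 4.78, 5.00, 4.41, 4.96 and 5.09 in placebo livers. Aqp8 thus rose 2.27-fold (log2 1.18 ± 0.18, adjusted p = 0.00145; chromosome 7 at 130611453 to 130611512), and its other probe rose by 1.26. Upp2, a uridine phosphorylase, read 6.05, 6.0, 6.49, 5.75 and 5.84 with E2 and 5.04, 5.12, 4.71, 4.77 and 5.11 under placebo. Upp2 thus rose 2.11-fold (log2 1.08 ± 0.21, adjusted p = 0.0234; chromosome 2 at 58643020 to 58643079). The Upp2 call ended without any 1 of 5 arrays, with slide as a block, with median scaling and with no filter on dim probes (adjusted p up to 0.317). In both genes the lowest E2 liver lay clearly above the highest placebo liver. Itpk1, an inositol phosphate kinase, read 0.83, 1.03, 0.79, 1.24 and 1.34 with E2 and -0.12, -0.58, -0.28, -0.15 and -0.15 under placebo. Itpk1 thus rose 2.46-fold (log2 1.30 ± 0.13, adjusted p = 1.61e-05; chromosome 12 at 103807413 to 103807472). Its groups were widely separated. Isyna1, which makes inositol phosphate from glucose 6-phosphate, lay just outside the threshold at 0.99 ± 0.21 (adjusted p = 0.0549). Ggct, an enzyme of glutathione breakdown, rose 1.63-fold (log2 0.71 ± 0.13, adjusted p = 0.0159), but its call ended without any 1 of 4 arrays. Tgm2, a protein-crosslinking transglutaminase, rose 2.09-fold (log2 1.06 ± 0.16, adjusted p = 0.00145). Pgpep1, which removes terminal pyroglutamate from peptides, rose 2.06-fold (log2 1.04 ± 0.10, adjusted p = 1.57e-05). Psen2, a catalytic subunit of gamma-secretase, rose 2.02-fold (log2 1.02 ± 0.09, adjusted p = 3.01e-06). Metabolic lists without a called member were glucose metabolism (28 genes, median 0.01), amino acid catabolism and urea cycle (35 genes, 23 above 0, median 0.09), heme and iron genes (36, median 0.02) and xenobiotic metabolism under CAR and PXR (32, median 0.03).

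Genes of the chromosome cycle and DNA were called singly, and the medians of the lists that hold them lay slightly below 0. Mad2l1, a component of the mitotic spindle checkpoint, read 0.56, 1.19, 0.80, 1.02 and 0.74 in the E2 livers and -1.30, -1.01, -1.41, -1.28 and -1.18 under placebo. Mad2l1 thus rose 4.29-fold (log2 2.10 ± 0.15, adjusted p = 2.18e-07; chromosome 6 at 66490836 to 66490895). The spread within each group was small against the distance between them, and its other probes rose by 1.24 and 1.44. Dntt, the polymerase that adds nucleotides without a template at antigen receptor joints in lymphocyte precursors, read 1.93, 2.22, 2.98, 3.20 and 2.70 with E2 and 0.47, 0.60, 0.14, 0.61 and 0.32 under placebo. Dntt thus rose 4.53-fold (log2 2.18 ± 0.25, adjusted p = 7.22e-05; chromosome 19 at 41133936 to 41133995). Its placebo livers were close together and its E2 livers spread over more than 1 unit, without overlap. Of 9 measured B and plasma cell markers 5 lay above 0 and 0 were called (median 0.01). Their mean level was -1.89 to -1.57 with E2 and -2.24 to -1.48 under placebo, so the groups overlapped. H2ap, a histone H2A family gene, read -1.69, -3.49, -3.62, -3.89 and -3.19 with E2 and -4.89, -5.37, -5.25, -5.50 and -4.99 under placebo (chromosome X at 9424484 to 9424543). Being well above background on 0 of 5 placebo arrays, H2ap rose at least 3.27-fold (adjusted p = 0.0451; fitted log2 2.02 ± 0.42). E2 animal 1 stood above the other E2 livers. The H2ap call ended without any 1 of 16 arrays and with normexp (0.58, adjusted p = 0.318).

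Fanca, a core component of the Fanconi anemia repair complex, rose by 1.03 ± 0.18 (adjusted p = 0.00763), or by 0.40 with normexp (adjusted p = 0.0263). The Fanca call ended with median scaling, quantile normalization, the authors' deposited values and without animals numbered below 750 (adjusted p up to 0.367). Twnk, the mitochondrial DNA helicase, rose by 0.69 ± 0.09 (adjusted p = 0.000313), a call that ended with median scaling and without animals numbered below 750. Together with Hrob and Trex2, Fanca made 3 called members among 35 genes of DNA recombination and repair, of which 13 lay above 0 and 22 below (median -0.09). Within slides 1, 2 and 4 that median was 0.02, -0.26 and 0.13 relative to all genes. Of 30 cell cycle genes Mad2l1 was called higher and Aspm lower, 21 lay below 0 and the median was -0.14. Cdk1, the mitotic kinase, was 0.87 ± 0.25 (adjusted p = 0.312), with E2 animal 1 highest. Within slides 1, 2 and 4 the median of the cell cycle list relative to all genes was -0.08, -0.40 and 0.21, so its sign was not the same in each.

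Several called genes act in the cytoskeleton, adhesion and membrane traffic, a grouping made after the calls were known. Flrt1, a leucine-rich transmembrane adhesion protein, read 0.85, 1.36, 0.73, 1.85 and 1.73 with E2 and -1.45, -0.98, -0.26, -0.20 and -0.50 under placebo. Flrt1 thus rose 3.96-fold (log2 1.98 ± 0.32, adjusted p = 0.00399; chromosome 19 at 7166519 to 7166578). Smtnl2, a smoothelin-like gene, read 1.90, 0.18, 1.09, 1.14 and 0.80 with E2 and -1.92, -1.36, -1.30, -0.75 and -0.39 under placebo. Smtnl2 thus rose 4.48-fold (log2 2.16 ± 0.30, adjusted p = 0.000672; chromosome 11 at 72203616 to 72203675). In both, the lowest E2 liver exceeded the highest placebo liver, although each group spread over about a unit or more. Another Flrt1 probe was higher by 2.70, and the remaining one, higher too, was well above background on 0 of 5 placebo arrays. Sytl5, a synaptotagmin-like effector of Rab GTPases, read -3.48, -3.43, -3.93, -3.91 and -3.89 with E2 and -6.60, -6.15, -4.97, -5.95 and -6.36 under placebo (chromosome X at 9570163 to 9570222). Its signal was well above background on 0 of 5 placebo arrays, so that Sytl5 rose at least 2.26-fold (adjusted p = 0.0323; fitted log2 2.28 ± 0.45). Its placebo values, all near the detection limit, spread far more than its E2 values. The Sytl5 call ended without any 1 of 9 arrays and with normexp (0.42, adjusted p = 0.303).

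Synpo, an actin-associated protein known from podocytes and dendritic spines, read 1.14, 0.37, 0.08, 0.33 and 0.14 with E2 and -0.39, -1.16, -1.37, -1.88 and -0.71 under placebo. Synpo thus rose 2.86-fold (log2 1.51 ± 0.26, adjusted p = 0.00669). The Synpo call ended with slide as a block, without animals numbered below 750 and with the wild-type arrays alone (adjusted p up to 0.254). E2 animal 1 stood above the other E2 livers, and the other Synpo probes rose by only 0.16 and 0.57 and were not called. Spon1, an extracellular matrix protein, read -3.27, -2.84, -3.13, -3.24 and -2.98 with E2 and -5.10, -4.41, -6.03, -3.99 and -4.42 under placebo. Spon1 rose (log2 1.70 ± 0.35, adjusted p = 0.0387; chromosome 7 at 121184084 to 121184143), with 2 of 5 placebo arrays well above background. The E2 livers lay close together above the scattered placebo livers, but the call ended without any 1 of 14 arrays and with normexp (0.40, adjusted p = 0.0657). Mark1, a kinase that detaches microtubule-associated proteins, read -1.53, -2.14, -1.91, -0.65 and -1.98 with E2 and -3.37, -2.51, -2.91, -3.03 and -2.48 under placebo. Mark1 thus rose 2.33-fold (log2 1.22 ± 0.25, adjusted p = 0.0384; chromosome 1 at 186722203 to 186722262). E2 animal 4 was far above the other 4, which came close to the placebo values. The Mark1 call ended without any 1 of 11 arrays, and the rise was 0.64 with normexp (adjusted p = 0.0411).

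Cpne5, a calcium-dependent phospholipid-binding copine, read -0.62, -0.56, -1.25, -0.47 and -0.36 with E2 and -1.83, -2.02, -2.05, -1.80 and -1.88 under placebo. Cpne5 thus rose 2.4-fold (log2 1.26 ± 0.17, adjusted p = 0.000607; chromosome 17 at 29294874 to 29294933). E2 animal 3 was the lowest of its group but above every placebo liver, while another Cpne5 probe showed -0.11, and the gene was not called with the mean of its probes (adjusted p = 0.476). Caskin2, a scaffold that is named for binding the synaptic kinase CASK, read 2.41, 1.80, 1.71, 1.98 and 1.63 with E2 and 0.65, 0.84, 1.02, 0.79 and 0.83 under placebo. Caskin2 thus rose 2.11-fold (log2 1.08 ± 0.13, adjusted p = 0.000104; chromosome 11 at 115660675 to 115660734). Dnaaf6b, a gene of the dynein arm assembly family, read -2.40, -2.60, -2.26, -2.98 and -2.50 with E2 and -2.98, -3.96, -3.68, -3.99 and -3.86 under placebo. Dnaaf6b thus rose 2.21-fold (log2 1.15 ± 0.23, adjusted p = 0.0287; chromosome X at 136641064 to 136641123). The groups were apart for Caskin2, and overlapped for Dnaaf6b, where placebo animal 1 reached the level of E2 animal 4. The Dnaaf6b call ended without any 1 of 8 arrays and with normexp (0.52, adjusted p = 0.301). Smaller rises were those of Baiap2l1, a membrane-bending actin regulator (1.07 ± 0.14, adjusted p = 0.000447), and of Dsc2, a desmosomal cadherin (0.94 ± 0.09, adjusted p = 1.27e-05). Others were those of Inf2, a formin (0.62 ± 0.11, adjusted p = 0.00851), Kif16b, a kinesin of endosomes (0.60 ± 0.11, adjusted p = 0.0143), and Trim2, a ubiquitin ligase (0.53 ± 0.10, adjusted p = 0.0204). The calls of Kif16b and Trim2 ended without any 1 of 3 and 5 arrays. Of 34 keratin and epithelial junction genes 3 were called, Krt4, Krt79 and Dsc2, and 17 lay on each side of 0 (median 0.00).

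Prtn3, a serine protease of neutrophil granules, read -2.30, -2.09, -2.05, -1.10 and -2.09 in the E2 livers and -5.35, -3.60, -3.64, -2.47 and -4.37 in the placebo livers. Prtn3 rose (log2 1.96 ± 0.38, adjusted p = 0.0282; chromosome 10 at 79343869 to 79344685), with 3 of 5 placebo arrays well above background. The highest placebo liver, animal 4, came close to the E2 values. The Prtn3 call ended without any 1 of 6 arrays, and the rise was 0.79 with normexp (adjusted p = 0.00916). The call also ended with median scaling, quantile normalization, no filter on dim probes and slide as a block. The same held without animals numbered below 750 and with the wild-type arrays alone (adjusted p up to 0.308). Within slides 1, 2 and 4 the rise of Prtn3 was 2.01, 0.29 and 3.26. Of the other markers of neutrophils, 7 were measured; 2 lay above 0, 0 were called, and Mpo, another granule enzyme, was not measured. Elane, the elastase of the same granules, was -0.10 ± 0.12 (adjusted p = 0.865), and the mean level of the neutrophil list was 0.99 to 1.30 with E2 and 1.02 to 1.35 under placebo.

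Among the remaining rises, some of them of genes with little or no known function, D430019H16Rik read 0.00, -0.14, -0.16, -0.79 and 0.15 with E2 and -1.69, -1.60, -1.65, -1.74 and -1.69 under placebo. D430019H16Rik thus rose 2.8-fold (log2 1.49 ± 0.17, adjusted p = 4.7e-05; chromosome 12 at 106731169 to 106731228). Its placebo livers agreed to within 0.15, and E2 animal 4 was the lowest of the E2 livers. Gm15401, a non-coding RNA, read -0.98, -0.28, -0.86, -0.77 and 0.11 with E2 and -1.57, -2.03, -1.63, -1.50 and -1.60 under placebo. Gm15401 thus rose 2.16-fold (log2 1.11 ± 0.23, adjusted p = 0.0478; chromosome 6 at 72587652 to 72587711). Its E2 livers were scattered above the placebo livers, and the call ended without any 1 of 15 arrays. Rises below 2-fold were seen for 9430038I01Rik (0.94 ± 0.10), Gm10272 (0.80 ± 0.16), 2610318M16Rik (0.78 ± 0.10), C2cd2l, a lipid transfer protein of membrane contact sites (0.75 ± 0.15), Dop1b (0.72 ± 0.12, with 0.19 at its other probe), Tsen54, a subunit of the tRNA splicing endonuclease (0.98 ± 0.15), and the zinc finger gene Zfp276 (0.65 ± 0.14). Their adjusted p-values ran from 2.45e-05 for 9430038I01Rik to 0.0469 for Zfp276. The calls of Zfp276, C2cd2l and Gm10272 ended without any 1 of 17, 10 and 6 arrays. Those of Zfp276 and Gm10272 also ended with normexp (adjusted p = 0.054 and 0.0657). Other probes of 9430038I01Rik rose by 0.88 and by 0.38, the latter uncalled (adjusted p over all probes = 0.686). The 8 called entries without a symbol were named here after their values were seen. Of them, 2 were Ensembl transcripts of myosin XVB, an unconventional myosin (at least 41-fold, and log2 2.62 ± 0.14), and 4 were lincRNA regions between 0.88 and 1.33. The others were the transcripts 3100002H09Rik (0.83 ± 0.16, with overlapping groups) and B430203I24Rik (0.77 ± 0.16). The calls of 3100002H09Rik and B430203I24Rik ended without any 1 of 6 and 11 arrays. With normexp the larger of the myosin XVB rises was 2.99 on the log2 scale and the smaller 1.53. Another probe of the transcript with the smaller rise was higher by only 0.21 and was not called (adjusted p over all probes = 0.739).

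**Figure D2:**
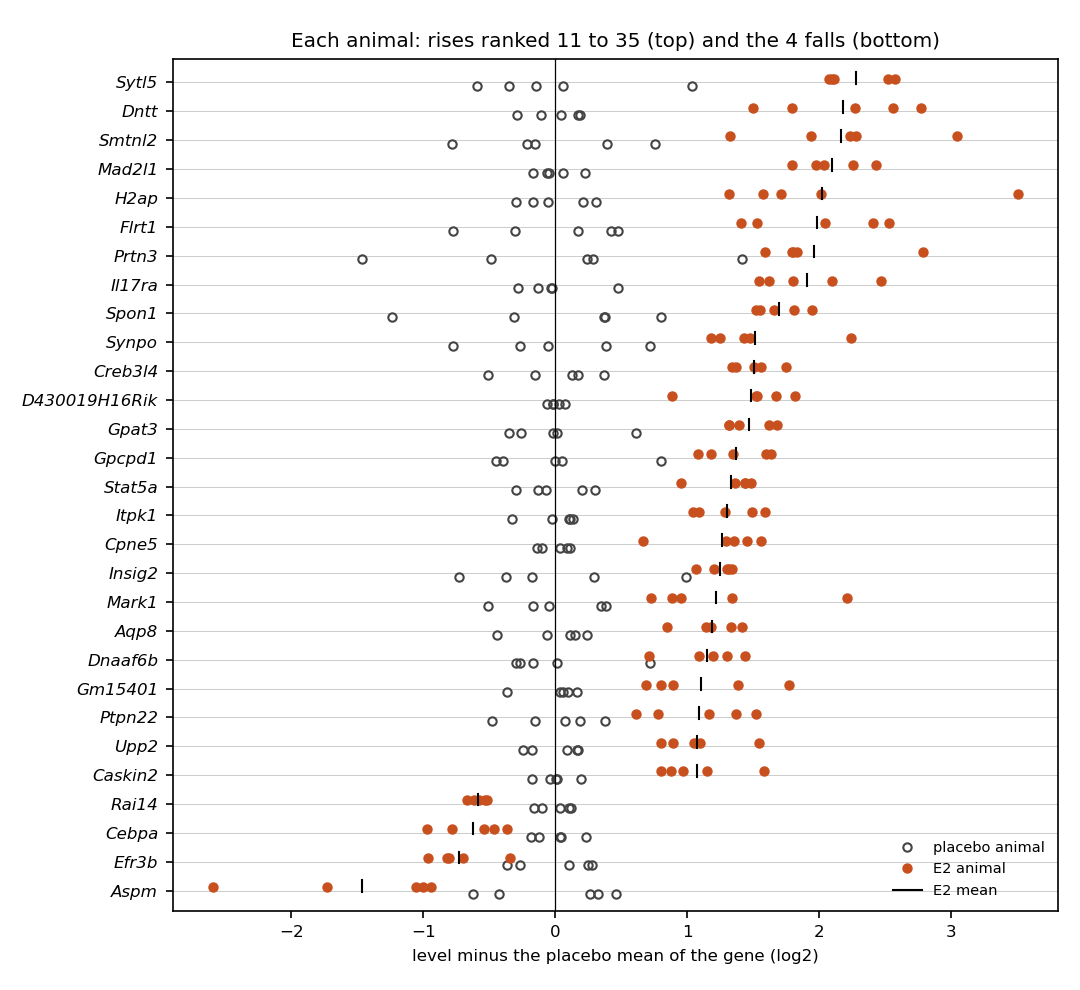
Level of each of 29 genes in each wild-type animal, as the log2 difference from the gene's placebo mean, for the rises ranked 11 to 35 and the 4 falls; open circles are placebo animals, filled circles E2 animals and vertical bars E2 means (5 animals per group). Groups overlap in Dnaaf6b among the rises and in Efr3b among the falls.

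Decreases were few and, apart from Aspm, less than 2-fold. The count of 4 was itself unsteady: it was 7 without the array of null placebo animal 1 or null E2 animal 4, 1 without wild-type E2 animal 1, and 2 without wild-type E2 animal 2 or wild-type placebo animal 2, 3 or 4. Cebpa, a transcription factor of differentiated hepatocytes, read 3.78, 3.97, 4.21, 4.38 and 4.28 in the E2 livers and 4.62, 4.56, 4.79, 4.78 and 4.98 under placebo. Cebpa fell by 0.63 on the log2 scale (adjusted p = 0.0204). Rai14, an actin-bundling protein, read 2.28, 2.15, 2.30, 2.20 and 2.23 with E2 and 2.85, 2.65, 2.92, 2.93 and 2.71 under placebo. Rai14 fell (log2 -0.58 ± 0.09, adjusted p = 0.00219). The groups did not overlap in either gene, and the 5 E2 livers were within 0.15 of each other for Rai14. Efr3b, which anchors a phosphatidylinositol kinase at the plasma membrane, read -3.16, -3.14, -3.30, -3.04 and -2.68 with E2 and -2.70, -2.23, -2.61, -2.06 and -2.09 under placebo. Efr3b fell (log2 -0.73 ± 0.14, adjusted p = 0.0243; chromosome 12 at 3962573 to 3962632). E2 animal 5 overlapped the placebo livers, and within slide 4, which held 1 animal of each group, the difference was 0.02. Aspm, which organizes the poles of the mitotic spindle, read -5.16, -4.44, -6.03, -4.38 and -4.49 with E2 and -3.86, -3.17, -2.97, -3.11 and -4.06 under placebo. Aspm fell (log2 -1.47 ± 0.30, adjusted p = 0.0356), with 2 of 5 E2 arrays well above background. With normexp the changes of Efr3b and Aspm were -0.32 and -0.32 and their calls ended. Without a single array the calls of Cebpa, Efr3b and Aspm ended for 5, 7 and 6 of the 20 arrays. For Cebpa these were placebo animals 3, 4 and 5 and E2 animals 1 and 2, all wild type. Each of these calls also ended with quantile normalization, with no filter on dim probes and with slide as a block. The same held without animals numbered below 750 and with the wild-type arrays alone (adjusted p up to 0.364 for Cebpa). With median scaling the calls of Cebpa, Efr3b and Rai14 ended. The next decreases, all uncalled, were those of Tmem170 (-0.38, adjusted p = 0.0615), Elovl6, Zfp112 (-1.39), 2810410L24Rik (-0.80), Col7a1, a collagen (-0.72), Lrrc28 (-0.53), Enpep, an aminopeptidase of angiotensin metabolism (-0.47), Chml (-0.55), Snhg7 (-0.42) and Pigc (-0.48), with adjusted p-values up to 0.224.

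On the other side of the threshold, the uncalled rises with the smallest p were Slc12a4, a potassium chloride cotransporter (0.55 ± 0.12, adjusted p = 0.0504), Stat5b, Arl15, a small GTPase (0.95 ± 0.20, adjusted p = 0.0505), Hif1a, the oxygen-regulated transcription factor (0.54 ± 0.12, adjusted p = 0.0524), Isyna1, Acot11, Pgap4 (0.71 ± 0.16), Ngfr, the low-affinity neurotrophin receptor and here a member of the stellate cell list (0.97 ± 0.21), Spata2l (0.90 ± 0.20) and Shisa8 (1.57 ± 0.35). In all 10 the groups did not overlap. The last called genes before the threshold were Insig2 (adjusted p = 0.0488), Gm15401 (0.0478), Gpcpd1 (0.0476), Zfp276 (0.0469) and H2ap (0.0451). The calls near the threshold were not firm: 24 of the 70 calls ended when 1 array or another was left out, and 20 others ended in another kind of setting, 9 of them under median scaling alone. The other 26 held in all 34 alternative settings. Among the rises ranked 11 on, those that held in all 34 were Dntt, Smtnl2, Mad2l1, Flrt1, Il17ra, Creb3l4, D430019H16Rik, Gpat3, Stat5a, Itpk1, Caskin2, Baiap2l1 and Tgm2. Further probes were kept for 18 of the called genes, 28 probes in all; 27 of them had the sign of the probe used, and 19, in 13 genes, passed the threshold over all probes themselves.

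Some called genes lay near each other. Another called gene lay within 200 kb of 21 of the 70 (30% of them), whereas 2.13% of the 21642 members with a probe position had a called gene that near. The pairs and groups were Gdf15 and Pgpep1 on chromosome 8, Fanca and Zfp276 on the same chromosome, Krt4 and Krt79 on 15, Rab44 and Cpne5 on 17, Sytl5 and H2ap on X, Ehhadh and Map3k13 on 16, Psen2 and a lincRNA region on 1, Caskin2, Tsen54 and the myosin XVB transcripts on 11, and 9430038I01Rik with a pair of lincRNA regions on 7. In the chromosome 7 group the probe of 9430038I01Rik and that of one lincRNA region have the same position and the third lies 120 bases away, so these calls are not independent of each other. Other probes of the lincRNA region with that shared position rose by 0.96, 0.75, 0.13 and 0.08, and those at 0.13 and 0.08 were not called. The myosin XVB transcripts, whose probes lie 4736 bases apart, are likewise counted separately among the 21. The 441 uncalled members within 200 kb of a called gene had a median change of 0.03 with 252 above 0, against 0.00 over all members.

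The promoters of the called genes were searched for the palindromic estrogen response element, 2 half-sites GGTCA facing each other across 3 bases, GGTCANNNTGACC. Windows from 250 bases before to 50 after the start site came from RefSeq on GRCm38.p6, a build other than that of the probes, and 46 of the 62 called genes with a symbol had 1 or more. No exact element was found in the 63 windows of the rises (0%, against 0.07% of all 32851 windows), and 3 windows held it with 1 mismatch (4.76%, against 0.877% of all windows). These 3 are shown with 8 bases on either side because they are the closest matches to the receptor's binding motif among the called genes, with the 13 bases of the element in capitals, 5′ to 3′ along the gene:
Mad2l1 (chr6:66535099-66535127, + strand): accttgtaGGTCACCAGGACCtggaacaa
Creb3l4 (chr3:90242717-90242745, - strand): gcgtcaaaGGTCCCGGTGACCagggtaca
Psen2 (chr1:180245980-180246008, - strand): tgttgacaGTTCAGAGTGACCctgactgt
Relative to the start sites the elements began at -114, -187 and -50. Single half-sites on either strand were in 28 of the 63 windows (44.4%, against 40.5% of all), counted whether or not they lay in a longer match, and 4 windows held at least 3 (6.35%, against 2.35%), those of Mad2l1, Gdf15, Slc27a1 and Stat5a. The Stat5a window held 4, more than any other called gene, and is shown whole with the half-sites in capitals:
Stat5a (chr11:100859406-100859705, + strand): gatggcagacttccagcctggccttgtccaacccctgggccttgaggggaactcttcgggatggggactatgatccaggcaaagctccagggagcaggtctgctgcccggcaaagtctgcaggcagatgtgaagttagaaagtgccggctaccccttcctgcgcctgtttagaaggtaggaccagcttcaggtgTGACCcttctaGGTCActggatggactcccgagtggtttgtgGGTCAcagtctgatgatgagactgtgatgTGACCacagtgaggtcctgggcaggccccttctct
These matches describe letters in short windows. No binding was measured, and more distant elements were not searched.

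The receptor-null livers give the reference for each rise. Over the 66 rises the change with E2 in nulls ran from -0.53 to 0.46 with a median of -0.04, and 27 lay above 0. None of the 66 was called in nulls with limma (background 0.00459% called), and 5 had an unadjusted p under 0.05 (against 5.99% of all members): Dntt (-0.53 ± 0.25), Fanca (-0.38 ± 0.18) and Dsc2 (-0.22 ± 0.09) below 0, and Ggct (0.34 ± 0.13) and Twnk (0.21 ± 0.09) above 0. The difference between the effects passed its own test for 34 of the 66 rises (0.165% of all members), 25 of them outside the 10 largest, while 7.38% of members had an unadjusted p under 0.05 for it. It was 2.14 ± 0.22 for Mad2l1 (adjusted p = 5.91e-05), 2.71 ± 0.36 for Dntt (0.00128), 2.10 ± 0.34 for Il17ra (0.00612), 1.53 ± 0.22 for Gpat3 (0.00243), 1.03 ± 0.13 for Psen2 (0.000548) and 1.15 ± 0.13 for Dsc2 (0.000174). For Stat5a it was 1.04 ± 0.21 and did not pass (0.0592), with a null change of 0.29; for Insig2 it was 1.67 ± 0.37 (0.109), for Flrt1 1.70 ± 0.46 (0.338), and for Ggct 0.37 ± 0.19 (0.687). A difference that did not pass does not show that the effects were alike. Of the 4 falls 0 passed, with differences of -0.60 for Rai14, -0.61 for Cebpa, -0.90 for Efr3b and -1.24 for Aspm, and 4 had an unadjusted p under 0.05.

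**Figure D3:**
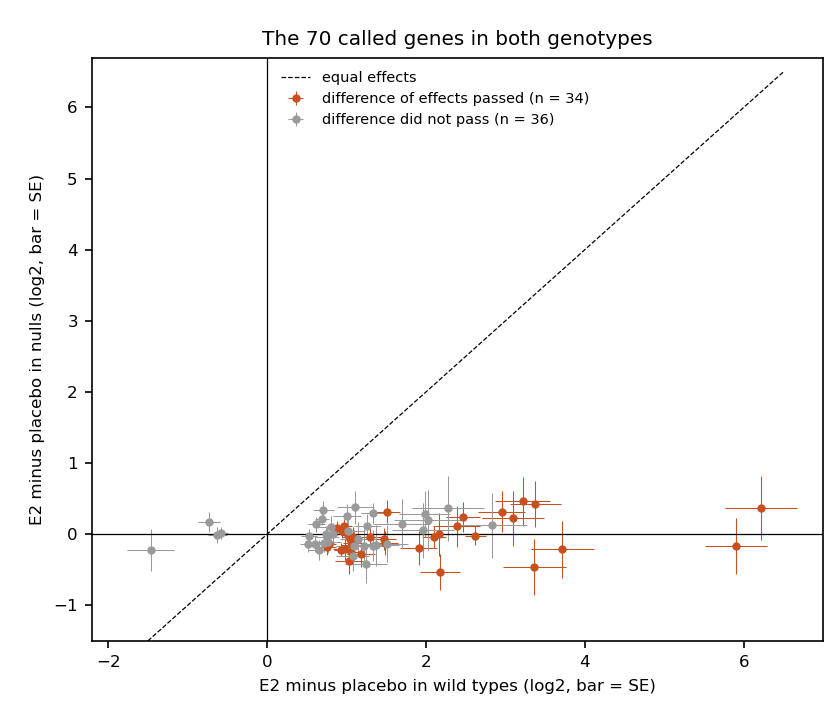
Log2 change with E2 in nulls (vertical) against that in wild types (horizontal) for the 70 called genes, with bars of 1 SE; orange points are the 34 genes whose effects differed between genotypes at an adjusted p under 0.05, grey points the other 36, and the dashed line marks equal effects. The wild-type changes were used to choose these genes, and in nulls the rises lie between -0.53 and 0.46.

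The genes of the receptors did not pass the test. Esr1, which encodes the receptor, differed by 0.21 ± 0.23 (adjusted p = 0.83), Esr2, for estrogen receptor beta, by 0.02 ± 0.11 (0.975) and Gper1, a membrane estrogen receptor, by -0.19 ± 0.22 (0.846). Among 25 receptors and coregulators 0 were called and the median was 0.00. Ddx17, an RNA helicase coactivator, was -0.21 ± 0.09 (adjusted p = 0.521) and Ncor1, a corepressor, -0.23 ± 0.09 (adjusted p = 0.53). Of 29 genes known as estrogen targets in uterus, mammary cells or other tissues 0 were called, 18 lay above 0 and the median was 0.03. Those with the smallest p were Sgk1, a serum- and steroid-induced kinase (0.66 ± 0.20, adjusted p = 0.336), Cdkn1a, the cell cycle inhibitor p21 (2.21 ± 0.82, 0.472), and Celsr2, a cadherin (1.08 ± 0.49, 0.579). Among 19 estrogen-metabolizing enzymes 0 were called. Hsd17b2, which oxidizes estradiol to estrone, was 0.47 ± 0.13 (adjusted p = 0.312) and Hsd17b6 -0.54 ± 0.23 (0.54). The sex-biased liver genes had 0 called of 21 male-biased and 30 female-biased members, with medians of -0.07 and 0.07. Within slides 1, 2 and 4 the male-biased median was -0.01, -0.36 and 0.40 relative to all genes. The female-biased median was 0.17, 0.22 and -0.35, so both turned in slide 4, and the animals of the groups overlapped.

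Lists of hepatocyte regulators and chaperones had medians slightly below 0, with 1 called member among them. Of 25 hepatocyte transcription factors 19 lay below 0 (median -0.12), and Cebpa was called. An unadjusted p under 0.05 was seen for 6 (24%, against 8.29% of all genes), 5 lower and 1 higher. Among the 5 were Foxa3 (-0.46 ± 0.17, adjusted p = 0.466) and Onecut1 (-1.14 ± 0.45, 0.506). In each animal the list's median was -0.20, -0.13, -0.23, -0.11 and -0.03 with E2 and 0.01, 0.01, 0.05, 0.02 and -0.12 under placebo, as differences from each gene's placebo mean. The groups overlapped, since placebo animal 5 lay below E2 animals 4 and 5, and relative to all genes the list stood at -0.13, -0.20 and -0.07 within slides 1, 2 and 4. Heat shock genes, the chaperones and their cofactors, had 16 of 21 members below 0 (median -0.15). Of these 0 were called and 5 were lower at an unadjusted p under 0.05, such as Hsph1 (-0.53 ± 0.16, adjusted p = 0.353), Hsp90aa1 (-0.42 ± 0.14, 0.377) and Stip1 (-0.31 ± 0.10, 0.423). Their median was -0.27, -0.23, -0.19, -0.10 and -0.14 in the E2 animals and 0.09, 0.00, 0.10, -0.08 and -0.09 in the placebo animals, so that every E2 liver lay below every placebo liver by a small margin. It was -0.03, -0.22 and -0.16 relative to all genes within the slides. Genes of endoplasmic reticulum folding and stress had 24 of 26 members below 0 (median -0.16), 0 called and 2 lower at an unadjusted p under 0.05. The animals overlapped (-0.03, -0.13, -0.11, -0.06 and -0.28 with E2, 0.01, 0.18, 0.22, -0.21 and -0.34 under placebo) and the sign turned in slide 2 (-0.34, 0.12 and -0.31). Ribosomal protein genes, a reference, also had 26 of 30 members below 0 with a median of -0.04.

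Most glucocorticoid targets and immediate early genes lay above 0, with wide differences among animals. Of 23 glucocorticoid targets 17 lay above 0 (median 0.20) and 0 were called. At an unadjusted p under 0.05 6 were higher, among them Sds, a serine dehydratase (0.70 ± 0.20, adjusted p = 0.304), Sgk1, and Ddit4, an inhibitor of mTORC1 (1.69 ± 0.51, 0.336). Ddit4 read 5.16, 5.60, 4.92, 3.68 and 4.00 with E2 and 3.60, 4.82, 2.09, 2.20 and 2.22 under placebo. Cdkn1a read 2.81, 2.76, 2.12, 0.68 and 1.81 with E2 and 2.34, 1.62, -0.41, -1.91 and -2.50 under placebo. The placebo livers thus ranged over several units for these genes and overlapped the E2 livers. The list's median per animal was 0.47, 0.62, 0.21, 0.00 and 0.10 with E2 and 0.37, 0.38, -0.02, -0.28 and -0.60 under placebo. It was -0.09, 0.59 and -0.30 relative to all genes within slides 1, 2 and 4, above 0 in 1 of the 3, and the median in nulls was -0.33. Of 23 immediate early genes 16 lay above 0 (median 0.26) and 0 were called. Jund, a subunit of AP-1, was at 0.54 ± 0.18 (adjusted p = 0.398) and the stress-induced factor Atf3 at 1.15 ± 0.43 (0.472). Within slides the list stood at -0.04, 0.44 and -0.29. Interferon response genes had 24 of 33 members above 0 (median 0.14; 0.02, 0.09 and 0.22 within slides) and 0 called, and the animals of the groups overlapped.

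**Figure D4:**
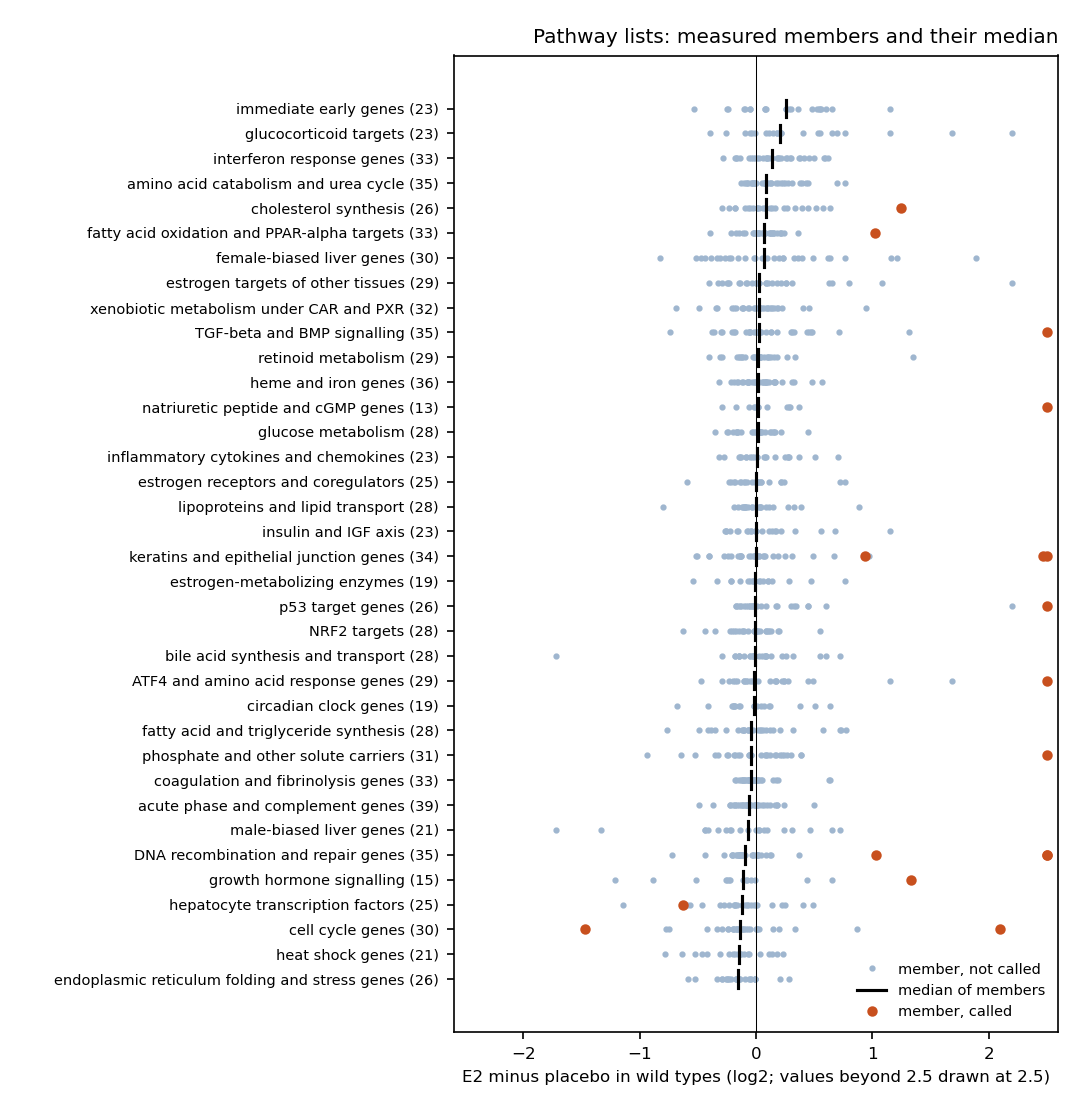
Log2 change with E2 in wild types of every measured member of 36 pathway lists (rows, with the number of measured members in parentheses); blue points are members that were not called, orange points called members, black bars list medians, and values beyond 2.5 are drawn at 2.5. Cebpa and Dsc2 lie among the uncalled members of their lists, the other called members lie outside them, Hrob and Trex2 coincide at 2.5, and the list medians lie between -0.16 and 0.26.

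The remaining lists had few calls and medians near 0. Gdf15 was the called member among 29 ATF4 and amino acid response genes (median -0.01), 26 p53 target genes (-0.01) and 35 genes of TGF-beta and BMP signalling (0.02), where Fst, the activin-binding protein follistatin, was 1.32 ± 0.45 (adjusted p = 0.427). Corin was the called member of 13 natriuretic peptide and cGMP genes (median 0.02) and Slc34a2 that of 31 solute carriers (-0.04), 5 of which were lower at an unadjusted p under 0.05, such as the taurine transporter Slc6a6 (-0.53 ± 0.18, adjusted p = 0.431). No member was called with limma among acute phase and complement genes (39, median -0.06, 1 at an unadjusted p under 0.05), coagulation and fibrinolysis genes (33, -0.05, 1), the insulin and IGF axis (23, 0.00, 3), circadian clock genes (19, -0.02, 2), NRF2 targets (28, -0.01, 2) and retinoid metabolism (29, 0.02, 1). The circadian median was -0.14 with quantile normalization and -0.12, -0.10 and -0.11 without placebo animal 4, E2 animal 3 and E2 animal 5. In the retinoid list Cyp26a1, which degrades retinoic acid, was 1.35 ± 0.39 (adjusted p = 0.315). In the insulin list Igfbp1, a binding protein of insulin-like growth factors, was 1.15 ± 0.49 (adjusted p = 0.554).

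Markers of other cell types lay to one side of 0 in some lists, and their part in the changes of other genes was not tested. All 9 measured erythroid markers lay above 0 (median 0.46), 6 with an unadjusted p under 0.05 and 0 called. Hba-a1, an alpha globin, was 0.49 ± 0.15 (adjusted p = 0.33) and Hbb-bt, a beta globin, 0.54 ± 0.18 (0.398). The erythroid median was 0.42, 0.77, 0.34, 0.30 and 0.20 in the E2 animals and -0.06, 0.05, 0.10, 0.12 and -0.25 in the placebo animals, without overlap. It was 0.49, 0.25 and 0.26 relative to all genes within the slides. Hbb-b1 and Gata1 were among the markers not measured. All 17 Kupffer cell markers lay above 0 (median 0.26, 0 called, 2 at an unadjusted p under 0.05). The animals overlapped, with medians of 0.22, 0.36, 0.82, -0.35 and 0.25 with E2 and 0.07, 0.07, -0.53, 0.25 and 0.08 under placebo. Relative to all genes the Kupffer list stood at -0.02, 0.18 and 0.12 within slides 1, 2 and 4. Its median change with E2 in nulls was 0.18. Of 19 sinusoidal endothelial markers 18 lay above 0 (median 0.14, 0 called), with a sign that turned in slide 2 (0.56, -0.44 and 0.81). Of 7 adipose markers 6 lay above 0 (median 0.30), 0 were called, and Adipoq, Lep and Plin1 were not measured. The adipose median was 0.35, 0.61 and -0.13 within slides, 0.17 with normexp and 0.53 with no filter on dim probes, and the animals overlapped. Stellate cell markers (18, median 0.05), bile duct markers (11, -0.06) and pancreatic acinar markers (5, -0.01) had 0 called as well.

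**Figure D5:**
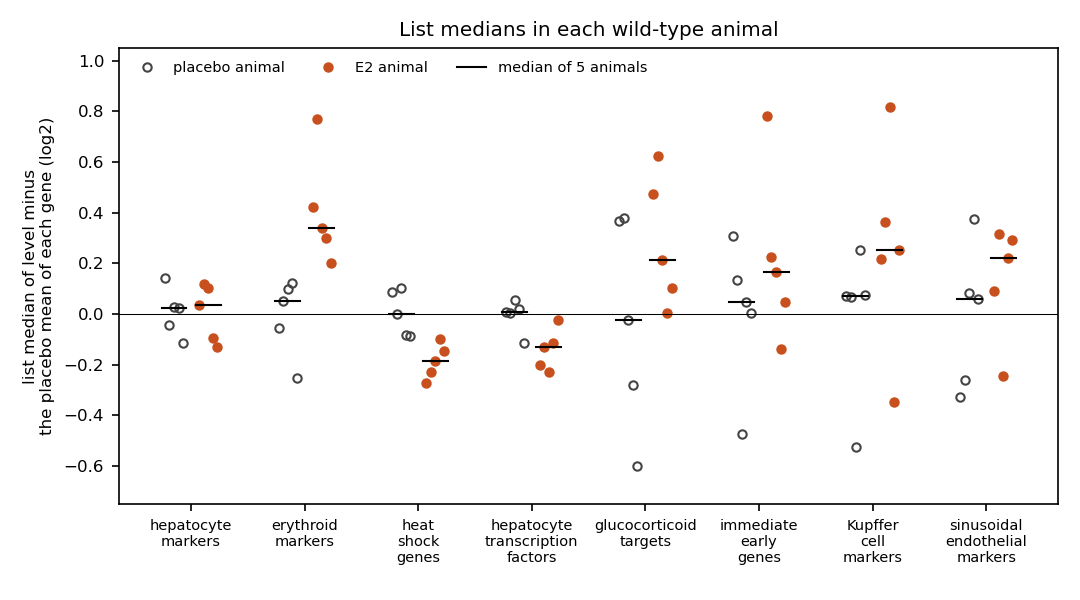
Median over the members of 8 lists in each wild-type animal, as the log2 difference from each gene's placebo mean; open circles are placebo animals, filled circles E2 animals, and bars the median of 5 animals. Groups do not overlap for erythroid markers and heat shock genes and overlap for the other 6 lists.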

How the data were processed

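Liver RNA of 20 mice was hybridised to Agilent 1-colour arrays, and the 10 wild-type arrays are described here. The deposited files hold scanner intensity per spot, which the authors extracted with Agilent Feature Extraction 10.10.1.1 per the submitters' processing notes; the background-corrected processed intensity was used. The authors' deposited log2 values served as an alternative.

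Control spots and spots marked as outliers were left out, log2 intensities were centred on each array's 75th percentile over non-control spots, and spots of a probe were averaged. The probe with the highest mean level stood for its gene. Probes were named through RefSeq accessions and symbols where these matched, and otherwise keep the name in the file; probe positions are those of mm9 in the files. The 4 groups were fitted with limma 3.58.1 in R 4.3.3 (data.table, version 1.17.8), with no covariate and a threshold of 0.05. Benjamini-Hochberg adjustment ran over all 21998 genes fitted, of which the members are a part. SE is that of the fit. The number of arrays limits the precision. P-values set a group difference against the spread between animals within groups, which was estimated over all 20 arrays, null livers included. The test was checked on simulated data.

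Named genes were all called genes with a symbol, the next 10 rises and falls by p, and the list genes with the smallest p. The members and lists were chosen with earlier results of these data known. The replicate numbers were not taken as pairs in the main fit. Deviations from the group means of wild-type animals with the same number correlated at 0.178, 0.177, -0.165, 0.068 and -0.102. These values do not settle whether the animals were paired.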

Additional observations from a re-analysis of the deposited data

Results flagged for a closer look

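In 30 of 422 groups of 5 animals examined, 1 animal stood apart from the other 4 by Dixon's test; chance flags about 1 in 20 groups. E2 animal 1 was highest for Krt4 (-2.34, against -3.33 in the nearest animal), Synpo (1.14, 0.37), Slc27a1 (2.08, 1.78), Cdk1 (-2.63, -3.25), Hyou1 (-1.31, -1.70), Nppa (-2.52, -3.63) and Retn (-2.80, -3.47). E2 animal 1 was lowest for C1s1 (6.28, against 6.43 in the nearest animal). E2 animal 2 was highest for Zfp276 (3.31, against 2.83 in the nearest animal). E2 animal 2 was lowest for Stat5a (2.20, against 2.61 in the nearest animal). E2 animal 3 was highest for Lck (-0.42, against -1.27 in the nearest animal). E2 animal 3 was lowest for Cftr (-2.15, against -1.90 in the nearest animal) and Nr1d1 (-1.30, -0.46). E2 animal 4 was highest for Prtn3 (-1.10, against -2.05 in the nearest animal). E2 animal 4 was lowest for Celsr2 (-2.61, against -1.76 in the nearest animal) and Vcam1 (1.23, 2.16). E2 animal 5 was lowest for Ass1 (9.56, against 9.69 in the nearest animal) and Rpl8 (7.76, 7.95). Placebo animal 1 was highest for Krt4 (-4.97, against -6.49 in the nearest animal), Celsr2 (-1.31, -3.07) and Cyp17a1 (5.37, 4.67). Placebo animal 1 was lowest for Tsen54 (1.94, against 2.31 in the nearest animal). Placebo animal 2 was highest for Fanca (-2.83, against -3.57 in the nearest animal), Zfp276 (2.67, 2.18) and Pklr (2.06, 1.58). Placebo animal 2 was lowest for Gm15401 (-2.03, against -1.63 in the nearest animal). Placebo animal 3 was lowest for Zbp1 (0.29, against 0.67 in the nearest animal). Placebo animal 4 was lowest for Gpt2 (5.36, against 5.78 in the nearest animal). Placebo animal 5 was highest for the chromosome 7 lincRNA region that shares the probe position of 9430038I01Rik (2.15, against 1.83 in the nearest animal). Placebo animal 5 was lowest for Tgm2 (4.95, against 5.22 in the nearest animal).

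The E2 effect differed between wild types and nulls for 34 called genes, by the interaction term of limma at an adjusted p under 0.05. The differences (log2, wild type minus null) were 5.86 for the myosin XVB transcript ENSMUST00000040703, 3.83 for Gdf15, 6.07 for Slc34a2, 2.87 for Krt4, 3.93 for Corin, 2.63 for Rab44, 2.95 for Mmd2, 2.64 for the myosin XVB transcript ENSMUST00000093911 and 2.75 for Hrob. They were 2.23 for Krt79, 2.28 for Asb2, 2.71 for Dntt, 2.16 for Smtnl2, 2.14 for Mad2l1, 2.10 for Il17ra, 1.19 for Creb3l4, 1.61 for D430019H16Rik and 1.53 for Gpat3. The next were 1.34 for Itpk1, 1.47 for Aqp8, 1.11 for Caskin2, 1.22 for Baiap2l1, 1.20 for the chromosome 1 lincRNA region next to Psen2, 1.31 for Tgm2, 1.11 for Pgpep1, 1.41 for Fanca and 1.03 for Psen2. The last were 1.19 for Tsen54, 0.86 for the chromosome 7 lincRNA region that shares the probe position of 9430038I01Rik, 0.90 for 9430038I01Rik, 1.15 for Dsc2, 0.79 for the other chromosome 7 lincRNA region, 0.91 for 2610318M16Rik and 0.93 for Map3k13. The wild-type changes of these genes, which chose them, enter the differences.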

How the results depend on the processing

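Of the 70 calls, 26 held in all 34 settings, and every called gene kept its sign in each setting fitted to both groups; Efr3b turned to 0.022 within slide 4. Median scaling, which moved the median change of all genes to -0.22, gave 32 calls (30 higher, 2 lower), 16 of them differing from nulls. Leaving out animals numbered below 750 gave 41 (40 higher, 1 lower; 10 differing), and the wild-type arrays alone gave 46 (2 lower). The count of decreases was 2 with quantile normalization, 1 with no filter on dim probes, 1 with slide as a block, 3 with normexp and 4 with the deposited values. Without single arrays there were 50 to 87 calls, 48 to 80 of them higher and 1 to 7 lower. Most calls ended without wild-type placebo animal 4 (21), E2 animals 1 and 3 (20 each), E2 animal 2 (19) and placebo animal 3 (18). With the replicate number as a block 90 genes were called (84 higher, 6 lower), 66 of the 70 among them. List medians near 0 changed sign relative to all genes under some scaling for receptors and coregulators, lipoproteins, bile acids, the insulin axis, ATF4, p53 and NRF2 targets, keratins, solute carriers, and hepatocyte, B cell and pancreatic markers. The cause of these changes was not tested. Probes near background limit the sizes of Slc34a2, Corin, Krt4, Rab44, Trex2, Prtn3, myosin XVB, H2ap, Sytl5, Spon1, Ptpn22, Efr3b and Aspm, among others.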
